A study of Arabidopsis thaliana with 2 samples.

Results

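The 8 functional actin genes of Arabidopsis thaliana were followed in the 2 regions of the globular embryo, the embryo proper and the suspensor. The members were taken by locus, ACT1 (AT2G37620), ACT2 (AT3G18780), ACT3 (AT3G53750), ACT4 (AT5G59370), ACT7 (AT5G09810), ACT8 (AT1G49240), ACT11 (AT3G12110) and ACT12 (AT3G46520), out of 20029 genes listed in either library. Of the 8, 6 were listed in both libraries, ACT12 in the embryo proper library alone and ACT4 in neither. Both regions came from wild-type seeds of the accession Ws-0, on plants of 38 to 46 days grown in continuous light at 20 °C, and carried no transgene or treatment. The embryo proper is the rounded apical part from which the seedling grows, and the suspensor is the file of cells that ties it to the maternal tissue. Laser microdissection of 5 or 7 μm paraffin sections gave each region, taken from seeds with an embryo 24 to 32 μm across, and pooled into 1 library. Since each region has 1 library, there was no replicate check and no test, and each difference describes these libraries.

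Actin is the subunit of the filaments that carry organelles and vesicles, mark the division plane and guide the growth of plant cells. Plant actin genes fall into a vegetative class, ACT2, ACT7 and ACT8, known from leaves, roots and stems, and a reproductive class, ACT1, ACT3, ACT4, ACT11 and ACT12, known from pollen, ovules and young organs. Within these classes ACT2 and ACT8, ACT1 and ACT3, and ACT4 and ACT12 are pairs of close relatives, while ACT7 and ACT11 each stand alone. Filaments are built and turned over by partner proteins, among them profilins that hold monomers, actin depolymerizing factors that sever filaments, formins and the Arp2/3 complex that start them, villins and fimbrins that bundle them, and myosins that move along them.

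All 8 genes have a coding sequence of 1134 bases without gaps between them, in 3 coding exons for ACT2 and 4 for each of the others, in the RefSeq annotation of TAIR10.1. ACT2 and ACT8 differed at 102 coding bases and 1 of 377 residues. ACT1 and ACT3 differed at 108 coding bases and 0 residues, so their transcripts encode the same protein. ACT4 and ACT12 differed at 137 coding bases and 1 residue. The other pairs shared from 78.3% to 84.3% of their coding bases. Windows of 60 bases were compared at codon starts only. Among them the 8 genes differ most over coding bases 655 to 714, counted from the A of the start codon. That window is shown because such differences are what allows a short read to be given to 1 member. Capitals mark bases that differ from ACT7, the most abundant member; each gene is on the plus strand of TAIR10.1, and 7 of the 8 are shown.
ACT7: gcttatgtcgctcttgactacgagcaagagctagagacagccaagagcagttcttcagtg
ACT8: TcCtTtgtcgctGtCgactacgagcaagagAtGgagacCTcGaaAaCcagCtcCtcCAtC
ACT1: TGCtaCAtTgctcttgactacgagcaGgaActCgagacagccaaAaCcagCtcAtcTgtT
ACT3: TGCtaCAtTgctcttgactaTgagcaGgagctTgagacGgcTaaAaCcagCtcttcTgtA
ACT4: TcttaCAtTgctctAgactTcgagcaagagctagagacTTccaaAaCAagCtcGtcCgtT
ACT12: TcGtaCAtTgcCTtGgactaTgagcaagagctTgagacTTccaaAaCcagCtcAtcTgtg
ACT11: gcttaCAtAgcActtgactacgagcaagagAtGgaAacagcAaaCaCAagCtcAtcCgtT
From 15 to 17 of the 60 bases differed from ACT7 in each of the other 6 members shown.

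Coding windows of 50 bases with an exact copy elsewhere in the Columbia genome were few. ACT2 and ACT7 had 0 of 1085, ACT8 and ACT11 had 2 each, ACT3 had 5, ACT1 had 8, ACT4 had 14 and ACT12 had 15. At 100 bases 0 of 1035 windows had a copy in each of the 8 genes. The longest run of identical bases was 35 between ACT2 and ACT8, 53 between ACT1 and ACT3 and 62 between ACT4 and ACT12. An exact read over 62 bases therefore belongs to 1 member, but the read length and the handling of reads with several matches are not known, and sequence differences between Ws-0 and Columbia were not examined. ACT1 shares 10 coding bases with AS1 (AT2G37630) on the opposite strand, a regulator of leaf polarity that stood at 34.5 RPKM in the embryo proper against 11.97 in the suspensor. Whether strand was used in counting is not known, and the part of AS1 reads in the ACT1 value was not tested.

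**Figure D1:**
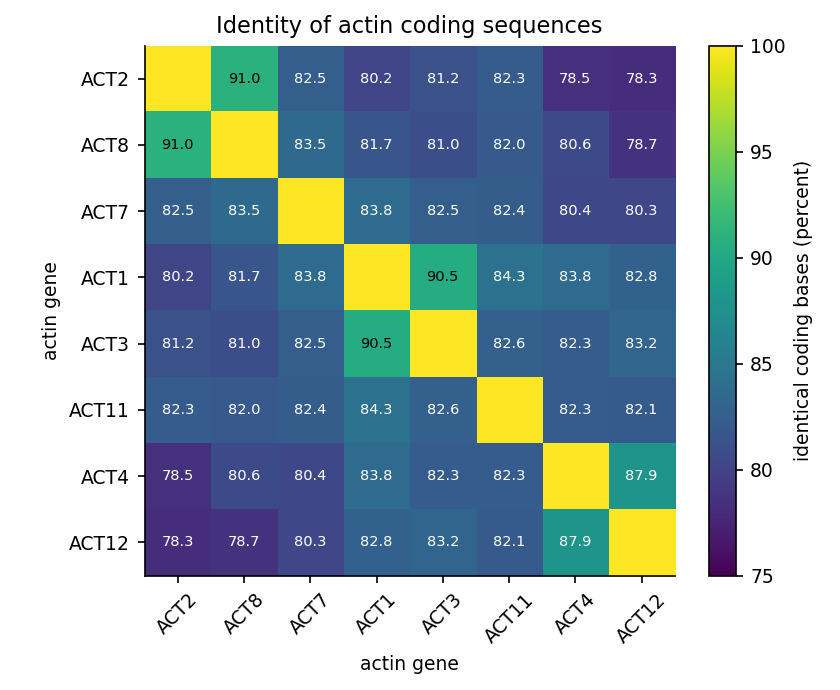
Percent of identical coding bases between each pair of the 8 actin genes, over 1134 bases each. The pairs ACT2 and ACT8, ACT1 and ACT3, and ACT4 and ACT12 stand at 91.0, 90.5 and 87.9 percent, and each other pair is at 84.3 percent or less.

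The deposited unit is RPKM, reads per kilobase and per 1000000 reads, so levels of the equally long actin genes compare directly within a library. Reads recovered from these values totalled 12715904 in the embryo proper against 7189147 in the suspensor. A gene that is not listed was taken as 0 reads, with a floor of 3 reads that equals 0.208 RPKM for an actin gene in the embryo proper and 0.368 RPKM in the suspensor. Ranges after a value are 95% intervals for counting error only, because reads copied by amplification and carrying no molecular identifiers are not independent. Markers were set beside the labels: 5 of 5 embryo proper genes were higher in that library by 2-fold or more, and 5 of 5 suspensor genes in the other. Of all genes with at least 1 RPKM in a library, 23.1% and 29.3% were. The marker lists were chosen with earlier results of these data known, so they are not an independent check of the labels. Endosperm markers were higher in the suspensor library by 2-fold or more in 7 of 7 measured members and seed coat markers in 8 of 9, beside the same 29.3%. Both are tissues that border the captured cells.

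ACT7, the vegetative actin that responds to auxin and is needed for root growth, was the most abundant actin transcript of both regions. It stood at 1093 RPKM (1076 to 1111) in the embryo proper, from 15768 reads, and at 357 RPKM (345 to 371) in the suspensor, from 2914 reads. The embryo proper held 3.06-fold more (2.94 to 3.18), with a log2 ratio of suspensor to embryo proper of −1.61 after adding 1 RPKM to each value. Among all genes ACT7 ranked 188 in the embryo proper against 450 in the suspensor by level. In a bulk library of captured tissue, fewer cells of a type and less RNA per cell cannot be told apart.

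ACT2, the vegetative actin most used as a constitutive marker, was also higher in the embryo proper. It stood at 117 RPKM (111 to 122) there, from 1682 reads, and at 30.9 RPKM (27.2 to 35.0) in the suspensor, from 252 reads. The embryo proper held 3.77-fold more (3.30 to 4.33), and the log2 ratio was −1.88.

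ACT8, which encodes nearly the same protein as ACT2 and is known to act with it in root hair growth, had the opposite order. It stood at 41.3 RPKM (38.0 to 44.7) in the embryo proper, from 595 reads, and at 131 RPKM (123 to 139) in the suspensor, from 1069 reads. The suspensor held 3.18-fold more (2.87 to 3.52), with a log2 ratio of 1.64. By level ACT8 ranked 3424 in the embryo proper, against 1244 in the suspensor.

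The reproductive pair ACT3 and ACT1 was higher in the suspensor for both members. ACT3 stood at 60.5 RPKM (56.5 to 64.6) in the embryo proper, from 872 reads, and at 114 RPKM (107 to 122) in the suspensor, from 933 reads. The suspensor held 1.89-fold more (1.72 to 2.08), and the log2 ratio was 0.91. ACT1 stood at 25.4 RPKM (22.8 to 28.1) in the embryo proper and 49.8 RPKM (45.1 to 54.9) in the suspensor, from 366 and 406 reads. The suspensor held 1.96-fold more (1.70 to 2.27), and the log2 ratio was 0.95. Both lie just under the 2-fold threshold used for counts, and their intervals span it.

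The remaining reproductive genes were scarce. ACT11, known from ovules, embryos and pollen, stood at 4.16 RPKM (3.18 to 5.36) in the embryo proper and 2.70 RPKM (1.69 to 4.09) in the suspensor, from 60 and 22 reads. The ratio of the embryo proper to the suspensor was 1.54 (0.932 to 2.64), so at this depth a difference could not be shown. ACT12, known as a late pollen actin, stood at 0.555 RPKM (0.240 to 1.09) in the embryo proper from 8 reads and was not listed in the suspensor. The floor of 0.368 RPKM there lies within the embryo proper interval, so the depth sets no minimum on this difference. ACT4, the pollen partner of ACT12, was not listed in either library. At 0 reads the upper limit of its interval was 0.256 RPKM in the embryo proper and 0.4525 RPKM in the suspensor.

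**Figure D2:**
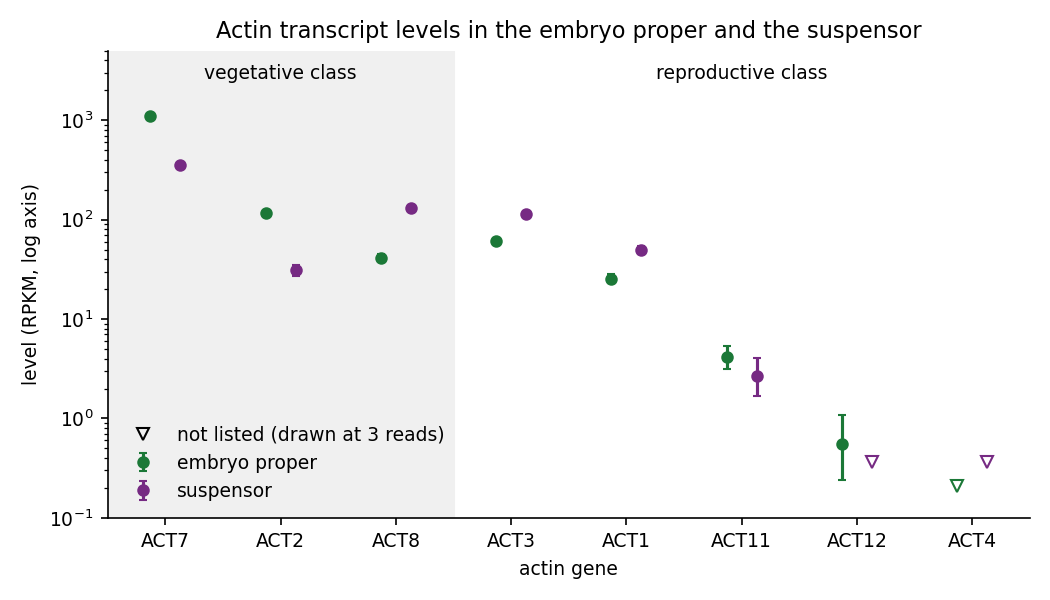
Level of each actin gene in RPKM, on a log axis, in the embryo proper (green) and the suspensor (purple), 1 library each; bars are 95% Poisson intervals for counting error and open triangles mark unlisted genes at the floor of 3 reads. ACT7 and ACT2 are higher in the embryo proper, ACT8, ACT3 and ACT1 are higher in the suspensor, and ACT4 is listed in neither.

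The order of the members differed between the regions. In the embryo proper it ran ACT7, ACT2, ACT3, ACT8, ACT1, ACT11, ACT12, and in the suspensor ACT7, ACT8, ACT3, ACT1, ACT2, ACT11. Each listed member differed from the next by more than counting error. The closest neighbours were ACT8 and ACT3 in the suspensor, with a ratio of 1.15 (1.05 to 1.25), and ACT3 and ACT8 in the embryo proper, with a ratio of 1.47 (1.32 to 1.63). ACT2 moved from the second place in the embryo proper to the fifth in the suspensor.

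On the scale of log2(RPKM + 1), 2 of the 6 members with at least 1 RPKM in a library, ACT7 and ACT2, were higher in the embryo proper by 2-fold or more, where 23.1% of 16975 genes passed. In the other direction 1 member, ACT8, was higher in the suspensor by 2-fold or more, where 29.3% of genes passed. ACT4 and ACT12 did not reach 1 RPKM. With both directions together 3 of 6 members passed, against 52.4% of all genes, so the number of differing actin genes was near the background, and their median log2 ratio was 0.21 beside 0.13 for all genes tested. When the 10 most abundant genes of each library were left out of the scaling, 2 members were higher in the embryo proper by 2-fold or more and 3 in the suspensor, with ACT1 and ACT3 added. That scaling raised the ratio of the suspensor to the embryo proper by 0.30 on the log2 scale, and 18.6% and 35.5% of all genes then passed. At 4-fold, 0 of 6 members passed, against 8.32% of genes higher in the embryo proper, 12.3% higher in the suspensor and 20.7% in either direction. The directions of ACT7, ACT2, ACT8, ACT3, ACT1 and ACT11 were kept under each of the 4 alternative scalings. For ACT11 counting error spans both directions. No scaling can reverse ACT12, which is at 0 RPKM in the suspensor.

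Summed over the family, actin transcripts stood at 1342 RPKM in the embryo proper against 686 in the suspensor. The embryo proper sum was 1.96-fold larger (1.90 to 2.01), a log2 ratio of −0.97. This direction rested on ACT7. Without it the other members summed to 248 RPKM in the embryo proper against 329 in the suspensor, 1.32-fold higher in the suspensor (1.26 to 1.39).

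The make-up of the pool differed too, and shares within a library do not depend on how the libraries are scaled. ACT7 supplied 81.5% of the actin RPKM in the embryo proper (80.9 to 82.0, exact binomial) and 52.1% in the suspensor (50.8 to 53.4). The vegetative class as a whole supplied 93.3% in the embryo proper (92.9 to 93.6) and 75.7% in the suspensor (74.5 to 76.8). The share of ACT8 was 3.07% (2.84 to 3.33) in the embryo proper and 19.1% (18.1 to 20.2) in the suspensor. The share of ACT2 was 8.69% (8.30 to 9.10) and 4.50% (3.97 to 5.08). The reproductive pair ACT1 and ACT3 together held 6.40% (6.06 to 6.75) in the embryo proper and 23.9% (22.8 to 25.1) in the suspensor. ACT11 held less than 1% in both, at 0.310% and 0.393%.

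**Figure D3:**
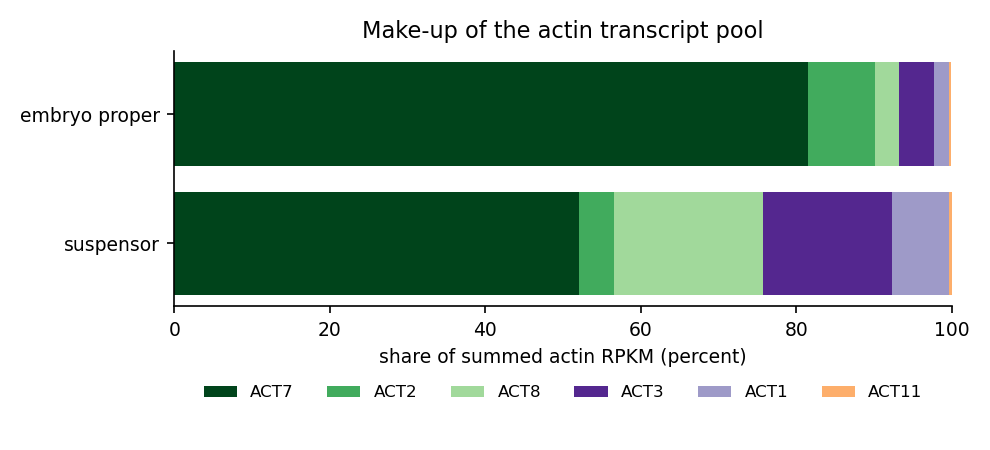
Share of the summed actin RPKM, in percent, held by each gene in each library; ACT12 and ACT4 are too low to be drawn. ACT7 takes 81.5 percent of the embryo proper bar and 52.1 percent of the suspensor bar, where ACT8, ACT3 and ACT1 are wider.

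Pairs of close relatives did not behave alike. For ACT2 and ACT8, whose proteins differ at 1 residue, the ratio of ACT2 to ACT8 was 2.83 (2.57 to 3.11) in the embryo proper and 0.236 (0.205 to 0.271) in the suspensor, a change of 12.0-fold (10.2 to 14.2). The sum of this pair was 158 RPKM in the embryo proper against 162 in the suspensor, a ratio of 1.03 (0.958 to 1.10), so under the deposited scaling the total of the pair differed by less than counting error. The ratio of these sums depended on the scaling: it was 1.27 (1.18 to 1.36) with the 10 most abundant genes left out and 0.933 (0.871 to 0.998) with the libraries scaled to a median log2 ratio of 0. The ratio of ACT2 to ACT8 within a library does not depend on it. For ACT1 and ACT3, whose proteins are identical, the ratio of ACT3 to ACT1 was 2.38 (2.11 to 2.70) and 2.30 (2.04 to 2.59), and the change of 0.965 (0.815 to 1.14) was within counting error.

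Ratios across the subclasses followed the same division. ACT7 exceeded ACT8 by 26.5-fold (24.4 to 28.8) in the embryo proper and by 2.73-fold (2.54 to 2.93) in the suspensor. ACT7 exceeded ACT3 by 18.1-fold (16.9 to 19.4) and 3.12-fold (2.90 to 3.37). The ratio of ACT7 to ACT2, both higher in the embryo proper, was closer between the regions, at 9.37 (8.91 to 9.86) and 11.6 (10.2 to 13.2).

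**Figure D4:**
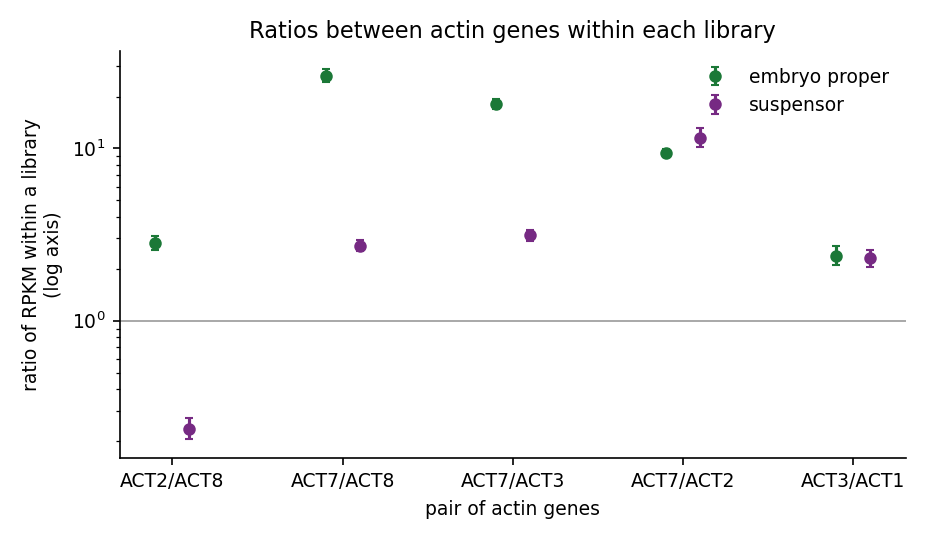
Ratios of RPKM between actin genes within a library, on a log axis, in the embryo proper (green) and the suspensor (purple), with 95% exact binomial intervals for counting error. The ratio of ACT2 to ACT8 is 2.83 in the embryo proper against 0.236 in the suspensor, while the ratio of ACT3 to ACT1 is 2.38 and 2.30.

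Markers of endosperm and seed coat stood higher in the library where ACT8, ACT3 and ACT1 were higher. Summed over 8 endosperm genes the level was 22.4 RPKM in the embryo proper against 347 in the suspensor, and over 10 seed coat genes 3.51 and 92.1 RPKM. Among the seed coat genes, TT1 stood at 3.02 RPKM in the embryo proper against 41.3 in the suspensor, LDOX at 0.22 and 25.7, and DFR at 0.137 and 10.2. AHA10 stood at 0.083 and 2.40 RPKM, and TT12 at 0.052 and 1.1. BAN, TT2, TT8 and TT10 were not listed in the embryo proper and stood between 1.50 and 3.69 RPKM in the suspensor, and TT16 was listed in neither. The part of these tissues in the actin values was not tested. Of 5 pollen markers, PPME1, a pectin methylesterase of pollen, was listed in neither library, and VGD1, another such enzyme, stood at 22.9 RPKM in the embryo proper against 0.856 in the suspensor. ANX1, a receptor-like kinase of pollen tubes, had the opposite order, at 1.02 and 4.47 RPKM, 4.39-fold higher in the suspensor (2.90 to 6.80). HAP2, a sperm fusion factor, stood at 1.30 and 0.657 RPKM, and ANX2, a relative of ANX1, at 0.549 RPKM in the embryo proper with no entry for the suspensor.

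Genes of the partner proteins were counted over 10 lists that hold 81 genes, of which 67 reached 1 RPKM in a library. Of these, 7 (10.4%) were higher in the embryo proper by 2-fold or more and 20 (29.9%) in the suspensor, against 23.1% and 29.3% of all genes tested. Their median log2 ratio was 0.37, beside 0.13 for all genes tested. The higher endosperm and seed coat markers of the suspensor library apply to these counts as well.

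Of 5 profilin genes 3 reached 1 RPKM in a library, and of 11 genes of actin depolymerizing factors 7 did. PRF1 was the most abundant profilin, at 131 RPKM in the embryo proper against 380 in the suspensor, 2.91-fold higher in the suspensor (2.63 to 3.21). PRF2 stood at 83.6 and 68.5 RPKM and PRF3 at 58.9 and 32.4 RPKM, under 2-fold in each case. Of 7 measured actin depolymerizing factors, 3 (42.9%) were higher in the suspensor by 2-fold or more, ADF4, ADF5 and ADF6. In the embryo proper 1 (14.3%) was, ADF11. The shares for all genes tested were 29.3% and 23.1%. ADF5 rested on 8 reads in the suspensor library against 0 reads in the other. ADF6 and ADF11 lay near the threshold, with log2 ratios of 1.04 and −1.01. ADF3, the most abundant in the embryo proper, stood at 212 RPKM there and 136 RPKM in the suspensor, and ADF1, the most abundant in the suspensor, at 178 and 232 RPKM. ADF4 stood at 75.3 and 174 RPKM, 2.31-fold higher in the suspensor (2.03 to 2.64).

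Genes of the nucleation machinery were counted in the same way. For the Arp2/3 complex, which starts branched filaments, 3 of 8 measured subunits (37.5%) were higher in the suspensor by 2-fold or more. In the embryo proper 0 were. Of all genes tested, 29.3% and 23.1% passed in these directions. ARP2 had the largest log2 ratio of these subunits, at 3.29 RPKM in the embryo proper against 11.9 in the suspensor, 3.61-fold higher (2.54 to 5.19). The SCAR/WAVE complex, the activator of Arp2/3, had 1 of 8 members (12.5%) higher in the embryo proper by 2-fold or more and 0 in the suspensor. The member past 2-fold was SCAR1, at 2.26 RPKM in the embryo proper from 71 reads and not listed in the suspensor. It was at least 13.4-fold higher against the floor of 3 reads. BRK1, the small subunit of the SCAR/WAVE complex, was its most abundant gene, at 51.2 and 37.2 RPKM.

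Formins, which start and elongate unbranched filaments, differed in both directions. Of 9 measured genes, 4 (44.4%) were higher in the suspensor by 2-fold or more, beside 29.3% of all genes tested. In the embryo proper 2 (22.2%) were, near the 23.1% of all genes. FH8 stood at 3.82 RPKM in the embryo proper against 78.8 in the suspensor, 20.6-fold higher in the suspensor (17.0 to 25.3). FH6 stood at 2.07 and 11.0 RPKM, 5.33-fold higher in the suspensor (4.06 to 7.08). Another formin gene, AT2G43800, had 19.3 RPKM in the embryo proper library and 0.777 in that of the suspensor, 24.8-fold higher in the former (14.9 to 44.6). FH1 stood at 4.31 and 0.529 RPKM, 8.15-fold higher in the embryo proper (4.55 to 16.1).

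Among filament bundling proteins, VLN4 stood at 13.8 RPKM in the embryo proper against 64.5 in the suspensor, 4.67-fold higher in the suspensor (4.22 to 5.18). VLN5, a villin known from pollen tubes, stood at 8.14 RPKM in the suspensor from 169 reads and had no entry for the embryo proper, at least 99.6-fold higher. The LIM domain bundler WLIM2a, AT2G39900, was higher in the embryo proper, at 64.4 RPKM against 4.15 RPKM, 15.5-fold (9.72 to 26.4). WLIM1 had the opposite order, at 8.65 and 36.2 RPKM. FIM5 was the most abundant fimbrin of both libraries, at 31.5 and 19.4 RPKM.

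Myosins, the motors on actin filaments, had 5 of 16 measured members (31.25%) higher in the suspensor by 2-fold or more, near the 29.3% of all genes, and 1 (6.25%) in the embryo proper, against 23.1%. ATM2, a class VIII myosin, was the most abundant in the suspensor, at 149 RPKM against 30.7 RPKM, 4.84-fold higher (4.56 to 5.15). XI-F had the largest log2 ratio, at 0.354 RPKM in the embryo proper against 9.86 in the suspensor, 27.8-fold higher (17.9 to 45.6). XI-I, known to move nuclei, was the myosin past 2-fold in the embryo proper, at 31.1 against 8.37 RPKM, 3.71-fold higher (3.27 to 4.23). The main organelle motors XI-K and XI-2 were under 2-fold, at 12.5 and 9.87 RPKM for XI-K and 6.56 and 6.84 RPKM for XI-2.

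**Figure D5:**
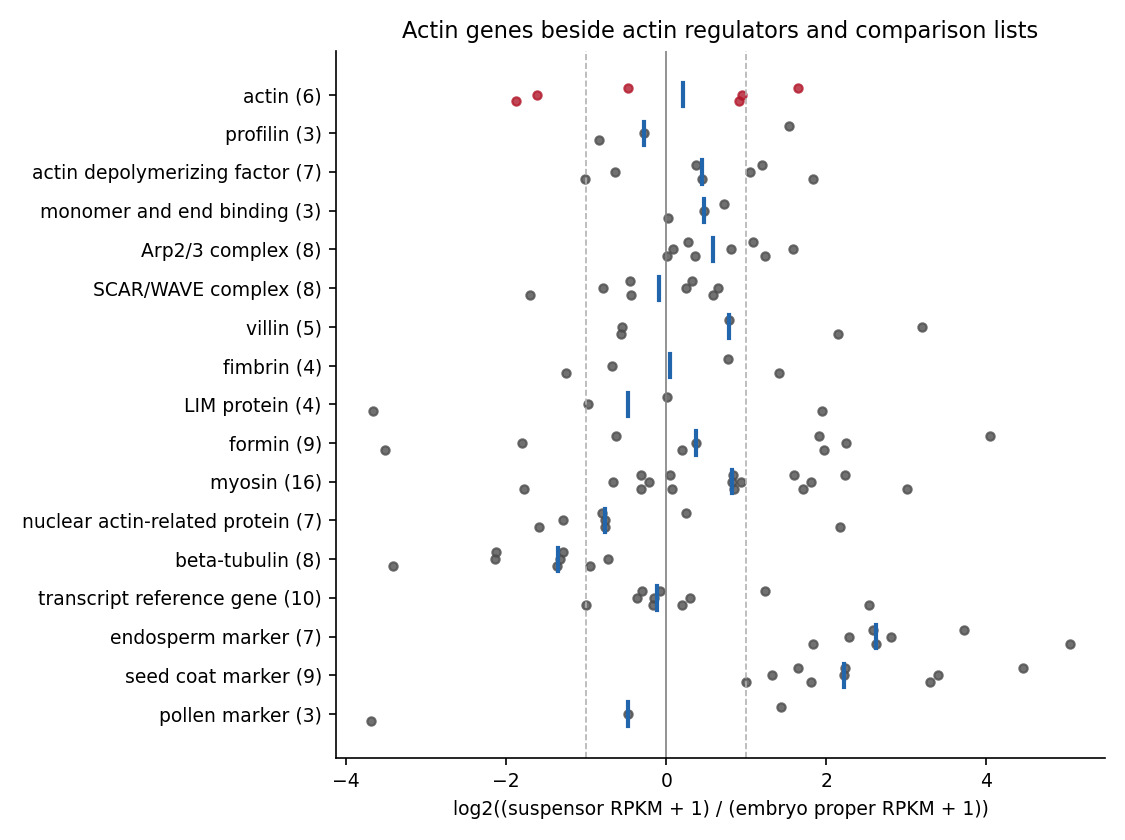
Log2 ratio of suspensor to embryo proper, after adding 1 RPKM, for measured genes of each list, with the number of genes in parentheses; red points are actin genes, blue bars are medians and dashed lines mark 2-fold. Actin genes lie on both sides, from −1.88 for ACT2 to 1.64 for ACT8, while the 8 measured beta-tubulin genes lie below 0.

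Several partner genes known from pollen were as scarce as ACT4 and ACT12, a grouping made after the values were seen. PRF5, ADF7 and PLIM2c were listed in neither library, PRF4 had 1 read in the suspensor, ADF10 had 2 reads there and PLIM2a had 1 read in the embryo proper. Others known from pollen were present, among them FIM5, VLN5 and PLIM2b, the last at 12.5 and 12.6 RPKM. The actin-like genes ACT9 (AT2G42090) and AT2G42100 were listed in neither library, and AT2G42170 had 1 read in the embryo proper.

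Nuclear actin-related proteins share the actin fold, and several work in chromatin remodelling. ARP4, the most abundant, stood at 115 RPKM in the embryo proper against 67.7 in the suspensor. ARP7 stood at 65.6 and 21.1 RPKM, 3.10-fold higher in the embryo proper (2.63 to 3.68), and ARP8 at 1.28 and 9.23 RPKM, 7.23-fold higher in the suspensor (4.54 to 11.95). Of the 7 measured, 2 (28.6%) were higher in the embryo proper by 2-fold or more and 1 (14.3%) in the suspensor, beside 23.1% and 29.3% of all genes, so the first share was near the background.

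Beta-tubulin, the other large cytoskeletal family, gives a scale for the actin values. Its 9 genes summed to 2384 RPKM in the embryo proper against 797 in the suspensor, 2.99-fold higher in the embryo proper, beside 1.96-fold for actin. Of 8 measured tubulin genes, 6 were higher in the embryo proper by 2-fold or more and 0 in the suspensor, against 23.1% and 29.3% of all genes tested. The difference between the families was not tested.

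ACT2, ACT7 and ACT8 are widely used to normalise transcript measurements, so the 10 other genes used for that purpose were placed beside them. The polyubiquitin gene UBQ10 stood at 175 RPKM in the embryo proper against 158 in the suspensor. GAPC2, a glycolytic enzyme, stood at 1135 and 1075 RPKM, and PP2AA3, a phosphatase subunit, at 32.4 and 37.3 RPKM. On the log2(RPKM + 1) scale 8 of the 10 were under 2-fold, 0 were higher in the embryo proper by 2-fold or more, where 23.1% of all genes passed, and 2 (20.0%) were higher in the suspensor, where 29.3% passed. CBP20, a cap-binding protein gene, lay at the threshold, at 302 and 150.4 RPKM, 2.01-fold higher in the embryo proper (1.86 to 2.17) without the added 1 RPKM. The pair higher in the suspensor was UBC9 at 1.90 against 15.8 RPKM and AT2G28390 at 13.4 against 32.7 RPKM. ACT2, ACT7 and ACT8 each exceeded 2-fold, and not in the same direction. Of all genes tested, 52.4% passed 2-fold in either direction.

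The genes nearest to ACT7 by level in both libraries, among 19868 nuclear protein-coding genes, were sought by the distance of log2(RPKM + 1) over 2 libraries. They were RPS10B (AT5G41520), a ribosomal protein gene, at 1031 and 345 RPKM, AT4G17520, AT3G09630, AT5G27700 and SAP18 (AT2G45640). Their distances ran from 0.0991 to 0.175 log2 units, and likeness over 2 libraries describes these levels alone.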

How the data were processed

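Transcripts were sequenced in 2 libraries, which the tissue labels assign to the embryo proper (1) and the suspensor (1). The authors deposited RPKM, per the file headers, which scales reads by gene length and per 1000000 reads, and only values above 0 were listed. Per the submitters' processing notes, the tools were HISAT2 2.0.6 and HTSeq 0.6.1 and the build TAIR10, with no roles given. Strand, read length and the treatment of reads with several matches are not stated in the labels or headers. Per the labels' protocols, 15 ng of total RNA was amplified, 150 ng of cDNA entered each library and 15 PCR cycles followed.

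Reads were recovered as RPKM × longest coding length × total reads, with the total found as the value at which low RPKM become whole reads. Of low values, from 0.2 RPKM up to 15 reads, 91.8% and 92.0% came within 0.05 of a whole read. Chance gives 10% at a total fixed in advance. The totals here were chosen to raise this share, so it is not an independent check. Each listed actin value came within 0.01 of a whole read. Coding lengths and sequences are from RefSeq on TAIR10.1, which matched 19875 of 20029 identifiers; its name differs from the build of the files, so no coordinates are given. The window sequence of 1 member is not reported here. The search was checked on simulated data. Folds without a pseudocount carry 95% exact binomial intervals, levels exact Poisson intervals, and changes in a ratio intervals from the log odds ratio. Counts at 2-fold used log2(RPKM + 1), with unlisted genes at 0 and at least 1 RPKM in 1 library. With 1 library per region no test was run. The members and the lists were chosen with earlier results of these data known. Named are all actin members and, per list, the most abundant genes and up to 3 with the largest difference each way; of these, not every one is printed. Alternatives were other pseudocounts, filters, scalings and thresholds, and, added after the data were seen, ACT7 left out, scalings of the ACT2 and ACT8 sum, a correction for shared windows and genes listed in both libraries. Python 3.11.15, numpy 2.4.6, scipy 1.17.1 and pandas 2.3.3 were used.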

Additional observations from a re-analysis of the deposited data

How the results depend on the processing

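Under 4 other scalings the listed members kept their direction, although for ACT12, at 0 RPKM in the suspensor, no scaling can change it. The 2 other pseudocounts change the size of a log2 ratio and cannot change its direction. Over these settings the log2 ratios ran from −1.75 to −1.31 for ACT7, −2.02 to −1.59 for ACT2 and 1.51 to 1.95 for ACT8. They ran from 0.77 to 1.21 for ACT3, 0.81 to 1.24 for ACT1, −0.61 to −0.25 for ACT11 and −2.71 to −0.15 for ACT12. For ACT11 counting error spans both directions. The summed log2 ratio was −1.11 with a median of 0, −1.03 by the upper quartile, −1.03 to a common sum, −0.66 without the 10 most abundant genes and 0.40 without ACT7, where it reversed because the most abundant member is gone. The log2 ratio of ACT2 and ACT8 summed, 0.04 as deposited, was −0.10 with a median of 0 and 0.34 without the 10 most abundant genes. The 10 most abundant genes left out gave 3 members and 28 partner genes higher in the suspensor, against 20 partner genes as deposited. In the embryo proper 2 members and 6 partner genes passed, against 7 partner genes as deposited. Of all genes, 35.5% and 18.6% passed under that scaling. At 4-fold, the embryo proper had 0 members and 2 of 67 partner genes higher, and the suspensor 0 members and 6 of 67. The shares of all genes at 4-fold were 8.32% and 12.3%. Partner genes higher in the embryo proper numbered 3 with a pseudocount of 5 RPKM, where low genes shrink, and 14 in the suspensor. A filter of 10 RPKM, which also brings the number of partner genes counted below 67, left 4 and 12. No share of all genes is given for this pseudocount or this filter, so these counts cannot be read against the background. Counting each close pair by its higher member gave vegetative shares of 94.9% and 80.7%. Correction for shared 50-base windows gave 93.2% and 75.6%. No paired analysis was possible because each region has 1 library. Depth limits ACT11, ACT12 and ACT4.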
